A study of Rattus norvegicus with 9 samples.

Results

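Apolipoproteins are the proteins that coat lipid particles in plasma. The set examined here was the 10 genes Apoa1, Apoa2, Apoa4, Apoa5, Apob, Apoc1, Apoc2, Apoc3, Apoe and Apoh, picked by gene symbol under a rule that uses no measured value, though with earlier results of these data known. Of these, 8 were represented by 1 probe set each, out of 14557 genes with a probe set carrying a single symbol. Apoa1 and Apoc3 were not matched in the probe annotation used here, so no value is given for them. Expression was measured on 9 Affymetrix Rat Gene 2.1 ST arrays as log2 values after robust multi-array average (RMA) normalization, in which a difference of 1 is a 2-fold difference.

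The arrays fell into 3 groups. BMDM were bone marrow-derived macrophages (n = 3), marrow of Dark Agouti rats cultured in CSF1 for 7 days. CSF1-Fc livers (n = 4) were from neonatal Sprague-Dawley rats given 1 µg/g porcine CSF1-Fc, the macrophage growth factor CSF1 fused to an antibody Fc fragment, subcutaneously for 5 days and sampled on day 6. PBS livers (n = 2) were from pups given the vehicle over the same days. All of these pups were born to dams that had themselves been injected with PBS in late pregnancy, and were raised by foster mothers. BMDM differed from the livers in strain and in culture as well as in cell type, and these cannot be told apart. The labels do not say that the BMDM cultures came from separate animals, so p-values for them measure the spread between these samples, which may be technical.

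Array medians lay between 3.75 and 3.87. PBS liver 2 stood apart, since it correlated with the other livers at r = 0.95 to 0.96, against r = 0.97 to 0.98 for every other pair of livers. Hepatocyte plasma protein genes were bright in the livers: 16 of the 24 listed were measured, and their log2 summed level was 8.69 to 9.11 in BMDM, 15.94 to 16.12 in CSF1-Fc livers and 15.99 to 16.15 in PBS livers. The log2 summed level of 16 of 20 listed macrophage markers was 13.84 to 13.89 in BMDM, 14.30 to 14.44 in CSF1-Fc livers and 12.65 to 13.05 in PBS livers. The macrophage list was therefore higher in every CSF1-Fc liver than in either PBS liver. Of its 16 genes, 10 were lower and 2 higher in BMDM than in CSF1-Fc livers (limma, adjusted p under 0.05). Some were dim in BMDM, such as Marco (mean 3.00) and Timd4 (3.88), so the sums do not rank BMDM and livers by macrophage content. In whole liver, fewer cells of a type and less RNA per cell cannot be told apart.

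As background, the liver makes most plasma apolipoproteins. ApoB is the structural protein of very-low-density and low-density lipoproteins, ApoE is the ligand that lets remnants be taken up through the LDL receptor family, and the small C apolipoproteins tune lipolysis and uptake. Macrophages are known to secrete ApoE, which takes part in cholesterol efflux from lipid-loaded cells, and ApoC1. Apoe, Apoc1, Apoc4 and Apoc2 lie next to each other on rat chromosome 1, and Apoa1, Apoc3, Apoa4 and Apoa5 on chromosome 8, with no other gene between them in the RefSeq annotation of GRCr8.

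The promoters of Apoe, Apoc1 and Apoc2 are shown because these neighbours on chromosome 1 had different levels in BMDM, and that of Apoa5 because its window held 4 of the 5 motifs searched. The sequences are the 250 bases before an annotated start, from RefSeq on GRCr8, 5′ to 3′ on the strand of the gene. RefSeq windows were found for Apoa4, Apoa5, Apoc1, Apoc2, Apoe and Apoh. Capitals mark TATAAA (the TATA box), CAAAG (a core of HNF4 sites), GTTAAT (a core of HNF1 sites), AGGTCA (a core of nuclear receptor sites) and TTGCNNAA (a C/EBP motif), searched on both strands.
Apoe, chr1:88484700-88484949, minus strand: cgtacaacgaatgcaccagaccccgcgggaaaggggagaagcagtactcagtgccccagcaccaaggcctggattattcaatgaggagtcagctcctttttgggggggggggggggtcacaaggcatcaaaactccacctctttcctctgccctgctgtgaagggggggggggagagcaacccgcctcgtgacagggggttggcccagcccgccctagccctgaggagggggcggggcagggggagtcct
Apoc1, chr1:88478306-88478555, minus strand: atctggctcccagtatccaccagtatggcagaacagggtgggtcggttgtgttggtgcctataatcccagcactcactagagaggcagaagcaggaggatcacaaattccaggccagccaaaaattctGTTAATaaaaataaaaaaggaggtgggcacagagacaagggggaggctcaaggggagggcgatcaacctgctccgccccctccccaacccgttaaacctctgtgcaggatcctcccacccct
Apoc2, chr1:88462366-88462615, minus strand: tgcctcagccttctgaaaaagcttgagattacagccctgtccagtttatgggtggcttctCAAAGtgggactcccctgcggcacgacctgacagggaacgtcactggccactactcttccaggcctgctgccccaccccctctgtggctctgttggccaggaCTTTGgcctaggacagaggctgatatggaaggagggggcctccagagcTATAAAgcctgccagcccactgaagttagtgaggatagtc
Apoa5, chr8:55457621-55457870, plus strand: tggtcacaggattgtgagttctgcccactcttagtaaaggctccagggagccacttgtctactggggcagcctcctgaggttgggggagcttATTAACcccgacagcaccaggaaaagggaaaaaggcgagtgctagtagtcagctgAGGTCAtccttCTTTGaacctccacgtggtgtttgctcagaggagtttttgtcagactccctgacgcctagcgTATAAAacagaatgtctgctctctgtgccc

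The Apoc2 window held TATAAA at position -40 and CAAAG at -190 and -88, counted back from the start. The Apoa5 window shown held TATAAA at -30, CAAAG at -92, AGGTCA at -103 and GTTAAT at -158. The Apoc1 window held GTTAAT at -122, and none of the 5 motifs was in the 3 Apoe windows. In the 33469 windows of 300 bases (250 before and 50 after a start), TATAAA was found in 14.2%, CAAAG in 53.8%, GTTAAT in 7.45%, TTGCNNAA in 10.6% and AGGTCA in 16.2%. A match is a description of the letters and says nothing of binding.

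Apoe was bright in every sample. Its log2 expression was 11.68, 11.62 and 11.90 in BMDM, 11.63, 11.51, 11.52 and 11.49 in CSF1-Fc livers, and 11.69 and 11.75 in PBS livers. BMDM overlapped both kinds of liver, and every CSF1-Fc liver lay below both PBS livers. The Apoe probe set ranked between the 99.65th and 99.78th percentile of its array throughout. BMDM exceeded CSF1-Fc livers by a log2 difference of 0.19 (SE 0.13, 95% interval -0.12 to 0.50, limma adjusted p = 0.294), and differed from PBS livers by 0.01 (SE 0.25, interval -0.60 to 0.62, adjusted p = 0.982). The interval against CSF1-Fc livers thus left room for a fold between 0.92 and 1.42. CSF1-Fc livers differed from PBS livers by -0.18 (SE 0.12, interval -0.46 to 0.10, limma adjusted p = 0.552). The upper end of that interval was 1.07-fold. The part of macrophage number in the Apoe level was not tested.

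**Figure D1:**
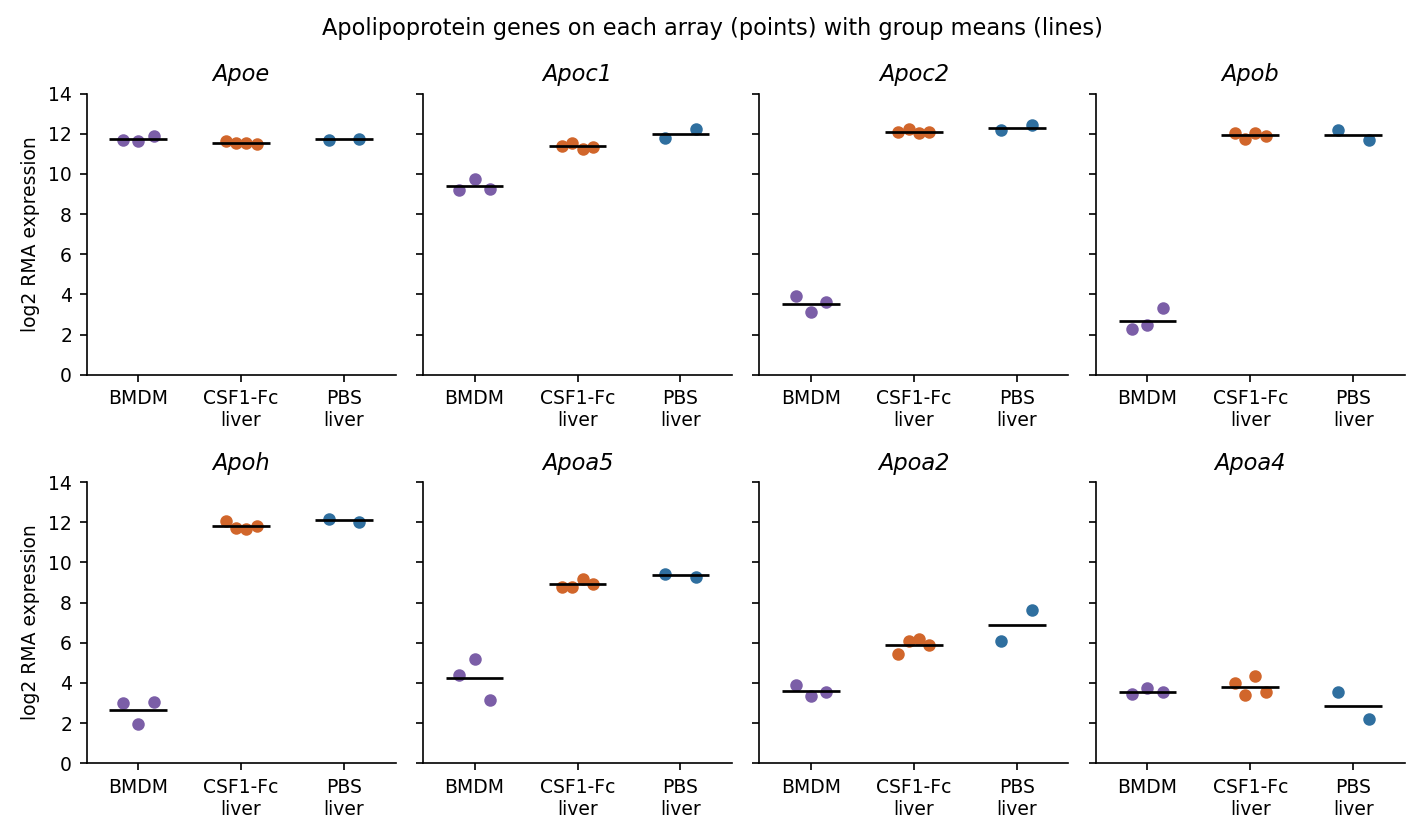
Log2 RMA expression (vertical axis) of the 8 measured apolipoprotein genes on each array, with BMDM, CSF1-Fc livers and PBS livers from left to right; points are single arrays and lines are group means. Apoe is level across the groups, Apoc1 is intermediate in BMDM, and Apoc2, Apob and Apoh lie under 4 in BMDM and above 11 in livers.

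Apoc1, known as an inhibitor of lipoprotein uptake, was also expressed in macrophages. It read 9.21, 9.73 and 9.26 in BMDM, 11.38, 11.54, 11.25 and 11.36 in CSF1-Fc livers, and 11.78 and 12.22 in PBS livers. The 3 groups did not overlap, and within BMDM the probe set still ranked between the 96.9th and 97.9th percentile. BMDM were lower than CSF1-Fc livers by 1.98 on the log2 scale, a 3.95-fold difference (SE 0.17, limma adjusted p = 7.54e-05), and 6.07-fold lower than PBS livers (log2 difference -2.60, SE 0.30, adjusted p = 0.00271).

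Apoc2, the activator of lipoprotein lipase, read 3.89, 3.13 and 3.60 in BMDM, 12.09, 12.23, 12.01 and 12.07 in CSF1-Fc livers, and 12.19 and 12.42 in PBS livers. It was among the brightest probe sets in all 6 livers and between percentiles 38.3 and 52.0 in BMDM. The log2 difference was -8.56 against CSF1-Fc livers (SE 0.20, limma adjusted p = 2.29e-07) and -8.76 against PBS livers (SE 0.32, adjusted p = 0.000187). Apoc4, a close relative of the other C apolipoproteins that lies between Apoc1 and Apoc2, read 3.92, 4.18 and 4.99 in BMDM, 11.74, 11.97, 11.55 and 12.05 in CSF1-Fc livers, and 12.07 and 12.41 in PBS livers. Along chromosome 1, the neighbours Apoe and Apoc1 were therefore near the top of the BMDM arrays and the next neighbours Apoc4 and Apoc2 were not.

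**Figure D2:**
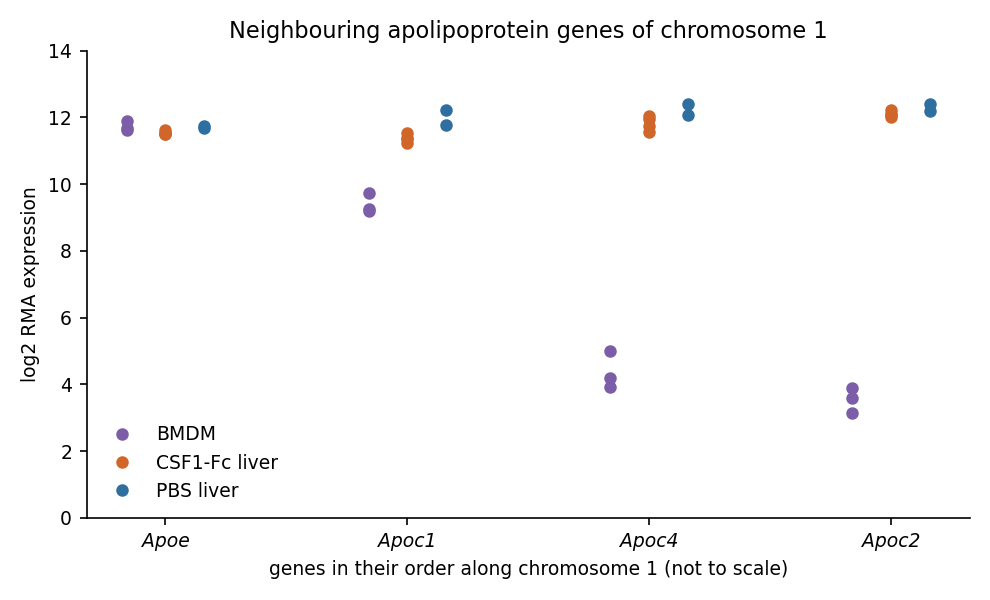
Log2 RMA expression (vertical axis) of Apoe, Apoc1, Apoc4 and Apoc2 in their order along chromosome 1 (horizontal axis, not to scale), with BMDM, CSF1-Fc livers and PBS livers from left to right within each gene and 1 point per array. All 4 genes are above 11 in livers, whereas in BMDM Apoe and Apoc1 are above 9 and Apoc4 and Apoc2 are under 5.

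Apob and Apoh were bright in livers and dim in BMDM. Apob read 2.28, 2.48 and 3.31 in BMDM, 12.02, 11.75, 12.02 and 11.89 in CSF1-Fc livers, and 12.17 and 11.66 in PBS livers. BMDM lay far below both kinds of liver, with a log2 difference of -9.23 against CSF1-Fc livers (SE 0.25, limma adjusted p = 4.23e-07) and the same rounded difference against PBS livers (SE 0.40, adjusted p = 0.000199). Apoh, a phospholipid-binding plasma glycoprotein, read 2.99, 1.95 and 3.02 in BMDM, 12.04, 11.72, 11.67 and 11.83 in CSF1-Fc livers, and 12.17 and 12.01 in PBS livers. Its log2 differences were -9.16 (SE 0.28, adjusted p = 5.4e-07) against CSF1-Fc livers and -9.43 (SE 0.40, adjusted p = 0.000199) against PBS livers. Both genes were at or under percentile 39.4 on every BMDM array. The values carry no detection call, so whether Apob, Apoh and Apoc2 were above background in BMDM was not tested, and their log2 differences may understate how far BMDM lay below the livers.

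Apoa5, which promotes the clearance of triglyceride-rich particles, read 4.41, 5.20 and 3.16 in BMDM, 8.77, 8.77, 9.18 and 8.91 in CSF1-Fc livers, and 9.41 and 9.28 in PBS livers. BMDM varied most for this member and still lay wholly below the livers, by a log2 difference of -4.65 against CSF1-Fc livers (SE 0.43, limma adjusted p = 0.000102) and -5.09 against PBS livers (SE 0.59, adjusted p = 0.0027). Apoa2, a structural protein of high-density lipoprotein, read 3.91, 3.33 and 3.52 in BMDM, 5.43, 6.09, 6.19 and 5.87 in CSF1-Fc livers, and 6.11 and 7.61 in PBS livers. Its log2 differences for BMDM were -2.31 against CSF1-Fc livers (SE 0.23, limma adjusted p = 0.000151) and -3.27 against PBS livers (SE 0.49, adjusted p = 0.00631). Apoa2 lay between percentiles 68.7 and 76.1 in CSF1-Fc livers and between 76.1 and 89.2 in PBS livers. In BMDM, Apoa2 lay between percentiles 42.0 and 52.2 and Apoa5 between 35.6 and 66.6. Neither was tested against background there.

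Apoa4, an apolipoprotein known mainly from the intestine, read 3.43, 3.73 and 3.52 in BMDM, 3.99, 3.39, 4.32 and 3.52 in CSF1-Fc livers, and 3.52 and 2.21 in PBS livers. All of these values were between percentiles 19.2 and 55.4 of their array, and the groups overlapped, so its differences are between dim values that were not tested against background. BMDM differed from CSF1-Fc livers by -0.24 (SE 0.24, limma adjusted p = 0.467) and from PBS livers by 0.69 (SE 0.43, adjusted p = 0.338). Its chromosome 8 neighbour Apoa5 was at or above the 95th percentile in every liver.

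In all, 6 of the 8 members were lower in BMDM than in CSF1-Fc livers, where 17.5% of the 36685 probe sets were lower, and 0 were higher, where 19.9% of probe sets were higher. Against PBS livers the same count, 6 lower and 0 higher, stood beside 10.4% of all probe sets lower and 10.2% higher. No member was higher at an unadjusted p under 0.05 in limma in either comparison, but the share of all probe sets at that threshold was not computed. Both comparisons used the same BMDM arrays, and each shares its livers with the comparison between livers. The median log2 difference over the members was -3.48 against CSF1-Fc livers and -4.18 against PBS livers, beside 0.14 and 0.12 over all probe sets. Each of the 6 calls was kept in every alternative run; where 1 PBS liver was left out, the other was a single array assumed to vary like BMDM.

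The CSF1-Fc livers were next compared with the PBS livers, the comparison that asks what treatment of the pups did to these genes in liver. None of the 8 members passed (limma, adjusted p under 0.05), while 1.48% of all probe sets did. At an unadjusted p under 0.05, 2 members were lower and 0 were higher, beside 6.40% of all probe sets lower. The share of all probe sets higher at that threshold was not computed. For 3 members every CSF1-Fc liver was below both PBS livers, beside 10.4% of probe sets, and for 0 members was every CSF1-Fc liver above, beside 10.3%. The members' median log2 difference was -0.24, beside -0.03 over all probe sets.

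The member with the smallest p was Apoc1, at 11.38 ± 0.12 in CSF1-Fc livers (SD, n = 4) and 12.00 ± 0.31 in PBS livers (SD, n = 2). The log2 difference was -0.62, or 1.54-fold lower in CSF1-Fc livers (SE 0.17, 95% interval -1.03 to -0.21, limma unadjusted p = 0.0101, adjusted p = 0.18). With 1 PBS liver left out, the other is a single array assumed to vary like the remaining samples of the fit, so such values here and below show dependence on that array and are no further evidence. Without PBS liver 1 the difference was -0.84 (adjusted p = 0.046), and without PBS liver 2 it was -0.40 (adjusted p = 0.274). Apoa5 had a log2 difference of -0.44 (SE 0.16, interval -0.83 to -0.04, unadjusted p = 0.0344, adjusted p = 0.31), and of -0.51 without PBS liver 2 (adjusted p = 0.31). Apoe was the other member without overlap.

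Apob differed by 0.00 (SE 0.18, interval -0.44 to 0.45, limma adjusted p = 0.997), so a change larger than 1.36-fold in either direction lay outside its interval. The sign of that difference changed between alternatives. Apoc2 differed by -0.20 (SE 0.13, adjusted p = 0.564) and Apoh by -0.27 (SE 0.15, adjusted p = 0.495), with overlapping groups. In all 6 livers these 3 genes lay close to the array maxima, which were 12.93 to 13.34.

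Apoa2 and Apoa4 had the widest intervals, and both rested on PBS liver 2. Apoa2 was 7.61 in PBS liver 2 and 6.11 in PBS liver 1, and Apoa4 was 2.21 and 3.52 in those livers. The log2 difference of Apoa2 was -0.96 (SE 0.43, limma adjusted p = 0.414) and was -0.21 without PBS liver 2. That of Apoa4 was 0.94 (SE 0.43, adjusted p = 0.416), against 0.28 without PBS liver 2. For comparison, the median absolute difference between the PBS livers was 0.37 over all probe sets.

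**Figure D3:**
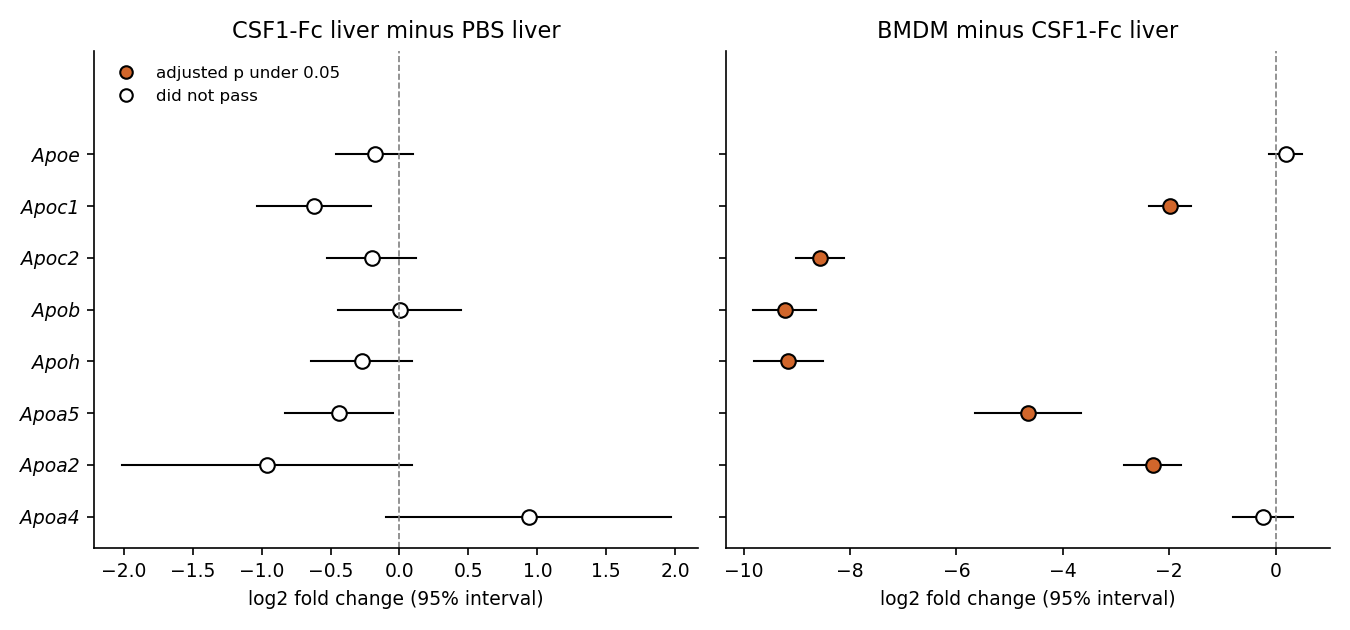
Log2 fold change of each member (horizontal axis) with its 95% interval from limma, CSF1-Fc livers minus PBS livers on the left and BMDM minus CSF1-Fc livers on the right; the horizontal scales differ, and filled points passed at an adjusted p under 0.05. No member passes on the left, and 6 pass on the right, all lower in BMDM.

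Liver by liver, 6, 7, 6 and 7 of the 8 members lay below the PBS mean in CSF1-Fc livers 1 to 4, with a median deviation between -0.29 and -0.15. Each count uses the same PBS mean, so the counts are not separate results. The share of all probe sets below that mean was not computed. Across the 6 livers, Pearson's r between members ranged from -0.95 to 0.95 over 28 pairs (median 0.37, 18 above 0). The neighbours Apoc1 and Apoc2 had r = 0.95, and Apoc1 and Apoe 0.84, whereas Apoa4 and Apoc2 had r = -0.95. These are descriptions over 6 livers that share the difference between groups. PBS liver 2 held the highest liver values of Apoc1 (12.22), Apoc2 (12.42) and Apoe (11.75) and the lowest of Apoa4 (2.21). Apoa4 was dim in every liver.

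**Figure D4:**
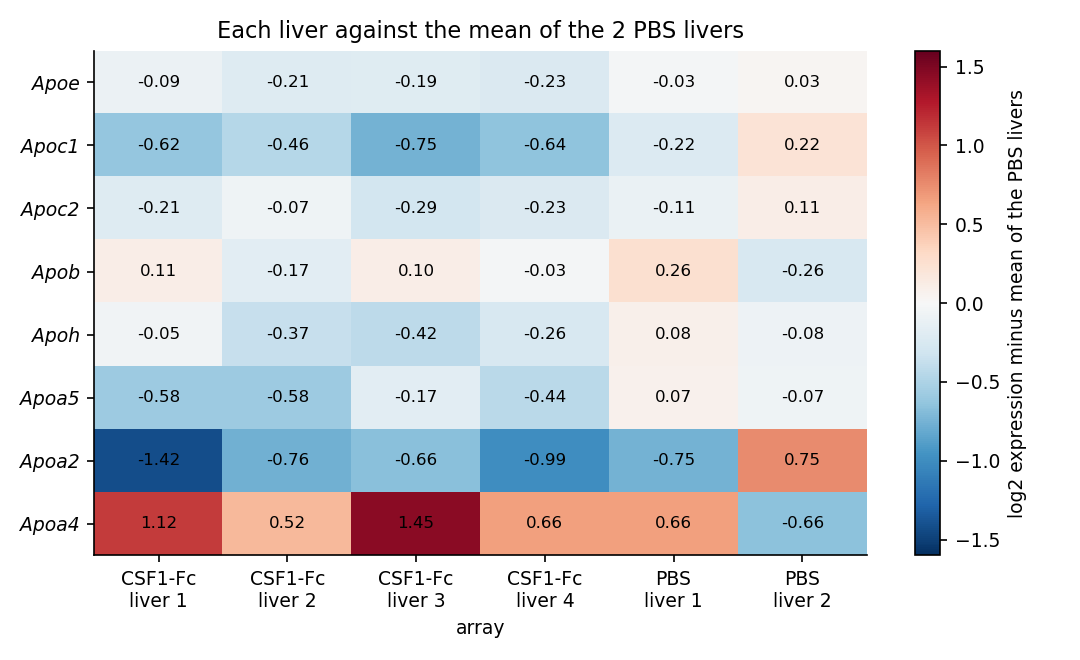
Log2 expression of each member (vertical axis) in each liver (horizontal axis) minus the mean of the 2 PBS livers, as colour and number. All members but Apob and Apoa4 are below 0 in all 4 CSF1-Fc livers, and PBS liver 2 lies on opposite sides of the PBS mean for Apoa2 (0.75) and Apoa4 (-0.66).

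Genes with the profile nearest to a member were found by the mean absolute difference over the 9 arrays after centring each probe set. For Apob these were Ambp (0.155), Bhmt (0.160) and Fgg (0.165), for Apoh Ttr (0.085), Fgg (0.245) and Afp (0.246), and for Apoc2 Alb (0.187), F2 (0.227) and Cyp2c23 (0.240). All of these but Bhmt and Cyp2c23, which are liver enzymes, encode plasma proteins. Apoc1 was nearest to Sox17 (0.091), Nudt6 (0.119) and Cdip1 (0.129), and Apoa5 to Cnn3 (0.201), Lgr4 (0.203) and Rida (0.257). Apoe was nearest to probe sets that were flat over the 9 arrays, the closest being 4930480E11Rikl (0.048). That probe set was dim, with means of 1.53 in BMDM, 1.33 in CSF1-Fc livers and 1.45 in PBS livers.

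Other genes of lipoprotein metabolism were read beside the members. Of 14 genes listed as further apolipoproteins, among them Apobr, which encodes a receptor for ApoB, 10 were measured. Between CSF1-Fc and PBS livers 0 passed (limma, at an unadjusted p under 0.05 there were 1 higher and 0 lower, median log2 difference -0.29). Apof, known in humans as an inhibitor of lipid transfer, differed by -0.89 (SE 0.37, adjusted p = 0.376), and Apol11a by 0.86 (SE 0.23, adjusted p = 0.179). Of 20 assembly and secretion genes 15 were measured, with 1 higher and 0 lower (median -0.28). The riser was Apobec1, the enzyme that edits Apob mRNA, at 8.55 in CSF1-Fc livers and 6.70 in PBS livers (log2 difference 1.85, SE 0.25, adjusted p = 0.0298), and it was 8.38 in BMDM. Mttp, the transfer protein that loads lipid onto ApoB, differed by -0.15 (adjusted p = 0.891). It was 9.45 in PBS liver 1 and 8.31 in PBS liver 2, and its difference turned to 0.43 without PBS liver 1 and was -0.72 without PBS liver 2.

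Among 14 of 20 receptors and uptake genes, 2 were higher and 0 lower (median 0.26). These were Cd36, a scavenger receptor and fatty acid translocase, with means of 9.74 in BMDM, 9.44 in CSF1-Fc livers and 7.18 in PBS livers (log2 difference between livers 2.26, SE 0.13, limma adjusted p = 0.0116), and Mylip, a ligase that degrades the LDL receptor (1.20, SE 0.15, adjusted p = 0.024). Among 12 of 16 plasma lipid enzymes and transfer proteins, 1 was higher and 1 lower (median -0.39). Pltp, which transfers phospholipid between particles, averaged 8.29 in BMDM, 10.68 in CSF1-Fc livers and 8.67 in PBS livers (2.01, SE 0.12, adjusted p = 0.0116). Pon1, the paraoxonase carried on high-density lipoprotein, averaged 2.93 in BMDM, 9.29 in CSF1-Fc livers and 10.41 in PBS livers (-1.12, SE 0.15, adjusted p = 0.0298).

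Of 8 sterol and phospholipid exporters 6 were measured, with 1 higher, Abcg1 (1.17, SE 0.16, limma adjusted p = 0.0318), and 0 lower (median -0.03). Of 29 regulators of apolipoprotein genes 20 were measured and 0 passed (at an unadjusted p under 0.05, 1 was higher and 3 lower, median -0.32). The largest differences were in Nr0b2, a nuclear receptor that represses bile acid synthesis (-1.36, SE 0.30, adjusted p = 0.107), and Nr1h3, the oxysterol receptor LXR alpha (1.04, SE 0.24, adjusted p = 0.121). Nr0b2 differed by -1.91 without PBS liver 1 (adjusted p = 0.0264) and by -0.82 without PBS liver 2 (adjusted p = 0.0931), and Nr1h3 by 0.67 and 1.42. When any 1 CSF1-Fc liver was left out, 0 probe sets passed between the livers, so none of these genes did; with PBS liver 1 as the only PBS array, Cd36, Mylip and Pltp had adjusted p-values of 0.0322, 0.0386 and 0.0322, and Apobec1, Pon1 and Abcg1 of 0.0501, 0.0653 and 0.0851.

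**Figure D5:**
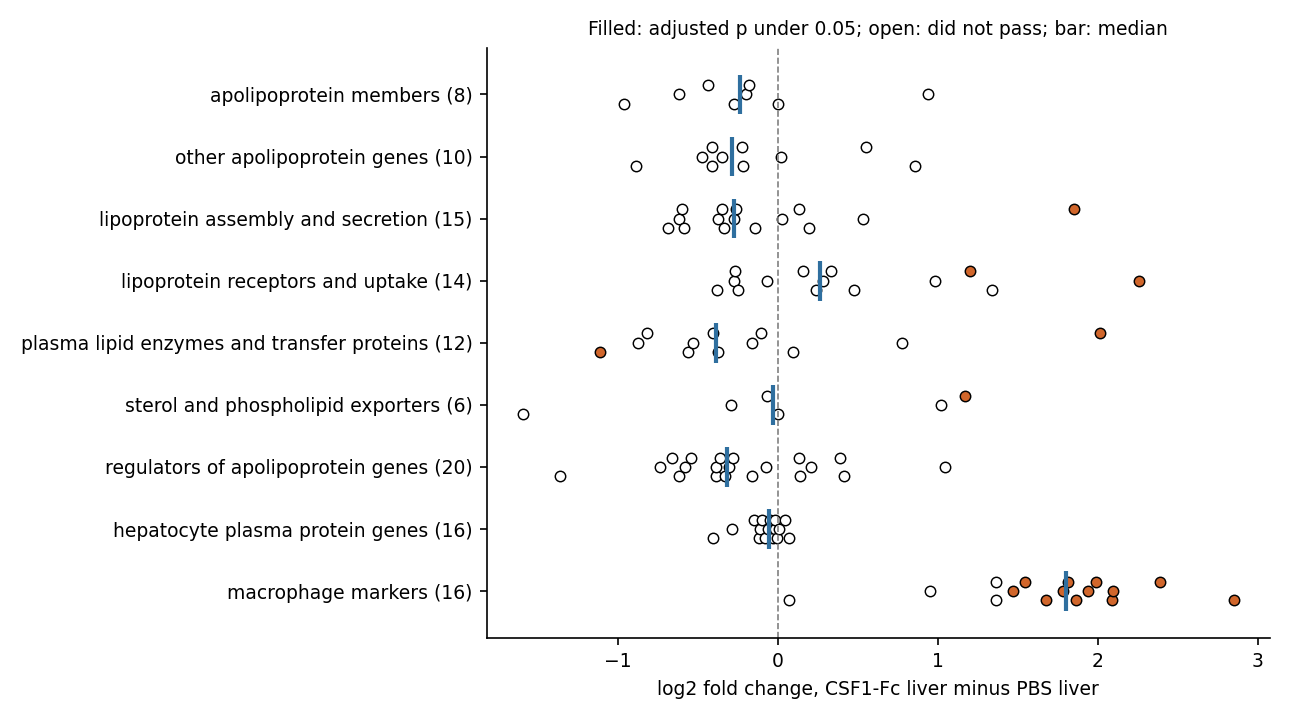
Log2 fold change, CSF1-Fc livers minus PBS livers (horizontal axis), for the members and for lists of related genes (1 point per gene, with the number measured in brackets and a bar at the median; filled points passed at an adjusted p under 0.05). The members centre at -0.24 and hold no filled point, and the macrophage markers centre at 1.80 with 12 filled of 16.

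Marker lists moved between the livers as follows. Macrophage markers were higher for 12 of 16 measured (median log2 difference 1.80), the 6 largest being Cd14, Timd4, Fcgr1a, Adgre1, C1qc and Vsig4, and plasma protein genes passed for 0 of 16 (median -0.05, limma, with 0 higher and 1 lower where p was left unadjusted at 0.05). When any 1 CSF1-Fc liver was left out 0 macrophage markers passed, though over all alternatives the log2 difference of Cd14 stayed between 2.53 and 3.17 and that of Adgre1 between 1.90 and 2.21. Neutrophil markers passed for 0 of 9 (6 lower at an unadjusted p under 0.05, median -1.82), with a log2 summed level of 9.26 to 10.49 in CSF1-Fc livers and 11.70 to 12.01 in PBS livers. Stellate and mesenchymal markers were lower for 2 of 9 (Lum and Dcn). Endothelial markers were lower for 1 of 8 (Ehd3), while Cdh5 differed by 1.03 (limma adjusted p = 0.219). Erythroid markers were higher for 1 of 6, Tfrc. This gene was also bright in macrophages, with means of 8.61 in BMDM, 8.91 in CSF1-Fc livers and 7.15 in PBS livers. Cholangiocyte and adipocyte markers passed for 0 of 4 and 0 of 6. The largest log2 differences there were Krt19 (-0.48) and Epcam (-0.41), and Cfd (1.31, limma adjusted p = 0.0505) and Cidec (-0.73, adjusted p = 0.0868). Among neutrophil markers they were Retnlg (-3.12) and S100a9 (-2.15), and among plasma protein genes Itih1 (-0.40) and Ttr (-0.29). Ehd3 lost its call in 11 of 14 alternatives and Dcn in 8 of 14. Cdh5 differed by 1.54 without PBS liver 1 (adjusted p = 0.0419) and by 0.52 without PBS liver 2. The part of these cell types in the members' values was not tested. With each array centred on the plasma protein genes instead, Apoc1 differed by -0.54 between the livers.

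In BMDM, all 16 plasma protein genes measured were lower than in CSF1-Fc livers (median -8.21), as were 19 of 20 regulators (median -2.75) and 12 of 15 assembly and secretion genes. Mttp averaged 2.44 in BMDM, 8.73 in CSF1-Fc livers and 8.88 in PBS livers. The receptors and uptake genes divided, with 2 higher and 8 lower of 14. Of the 10 measured on the list of further apolipoprotein genes, 5 were lower. The 1 higher was the receptor gene Apobr (log2 difference 2.55, SE 0.14, limma adjusted p = 7.69e-06), so no further apolipoprotein itself passed as higher.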

How the data were processed

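RNA from livers and BMDM was hybridised to Affymetrix Rat Gene 2.1 ST arrays. The authors summarized signal to probe sets and normalized it by RMA, and the deposited values are log2 expression; quality control used Expression Console. The sources used here do not state whether all 9 arrays were normalized together. Of all probe sets, 6423 (17.5%) held the same value on at least 1 BMDM and 1 liver array. The number of arrays limits the precision.

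Probe sets were named from platform annotation: 14824 carried 1 symbol, 829 several and 21032 none, and only those with 1 were named. The brightest probe set stood for a symbol with several. Each comparison was fitted to its own groups with limma 3.58.1 in R 4.3.3 (lmFit and eBayes), and p-values were adjusted by Benjamini-Hochberg across the whole array, with calls at 0.05. The method was tested on simulated data. The study's methods name no test of single genes between the array groups. The study reported fold changes between the livers and a correlation network with gene clusters. It also applied gene set enrichment analysis and CIBERSORT to the arrays. None of these was used here.

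The members and gene lists were chosen with earlier results of these data known. All members are named. From each other list, up to 6 genes that passed between CSF1-Fc and PBS livers are named, or else the 2 with the largest difference. The 3 genes nearest to Apob, Apoh, Apoc2, Apoc1 and Apoa5 are given, and the nearest to Apoe. Those nearest to Apoa2 and Apoa4 are not given. Apoc4, Mttp and Cdh5 were described in addition, after their values were seen. Alternatives were a fit to all 9 arrays, filters on dim or unnamed probe sets, another eBayes prior, quantile normalization, centring on the array median or on plasma proteins, a replicate block, and each array left out. Promoters are from RefSeq on GRCr8; the build behind the array annotation is not given in the sources used here.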

Additional observations from a re-analysis of the deposited data

Results flagged for a closer look

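Among 39 sets of 4 CSF1-Fc liver values checked, 2 had 1 array far from the other 3, where chance gives about 1 in 20. Both are marker genes of other cell types, and both concern CSF1-Fc liver 3. Krt19, a cholangiocyte keratin, was 4.92 in that liver and 4.26 to 4.31 in the other CSF1-Fc livers. Retnlg, a neutrophil marker, was 1.90 there and 3.34 to 3.50 in the others. No apolipoprotein gene had such an array.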

How the results depend on the processing

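Over the 8 members and 3 comparisons, 317 alternatives were run: 308 kept direction and side of the threshold, 8 turned the sign of a difference that had not passed, and 1 brought a member past it. The count of members lower in CSF1-Fc than in PBS livers was 0 to 1 when 1 array was left out (1, Apoc1, without PBS liver 1). Between those livers Apob was 0.00 and became -0.015 with median centring and -0.031 with the replicate block, with a range of -0.25 to 0.26 when 1 array was left out; Itih1, a plasma protein gene at -0.40, ranged from -0.96 to 0.15, and Mttp, at -0.15, from -0.72 to 0.43. Apoe in BMDM against PBS livers was 0.01, became -0.074 with the replicate block and ranged from -0.074 to 0.069 when 1 array was left out. The cause was not tested. All probe sets called between CSF1-Fc and PBS livers numbered 542, 816 without dim probe sets, 0 with the block, 0 without any 1 CSF1-Fc liver, 2628 without PBS liver 1 and 393 without PBS liver 2. Between BMDM and PBS livers they numbered 7569, 11616 with all 9 arrays fitted, 4841 among probe sets with 1 symbol, and 3804 to 7185 with 1 array left out. Between BMDM and CSF1-Fc livers they numbered 13717, and 7033 among probe sets with 1 symbol. Deviations of same-numbered arrays correlated at -0.12 to 0.18. Those of the 2 PBS livers mirror each other by construction, so these values cannot settle whether replicate numbers pair the livers. The block left the members' counts at 0, 6 and 6. Between the livers it left 0 probe sets called, so the count of 0 there says nothing of pairing. Averaging a symbol's probe sets was not run, since each member has 1, and the filter on dim probe sets leaves out Apoa4. Pon1 also lost its call with all 9 arrays fitted (adjusted p = 0.257, limma). With 2 PBS livers, 1 library decides several values.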
